A study of Mus musculus with 47 samples.

Results

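The 33 genes described here encode proteins of the synaptic vesicle cycle and of the synthesis, storage and release of transmitters. They were taken from a given list of gene names, which was chosen with earlier results of these data known. All 33 were found among the 35856 gene symbols of the expression table. By role they are 4 SNARE proteins, 5 synaptotagmins and complexins (calcium sensors, their relatives and fusion clamps), 7 proteins of the vesicle itself and 6 proteins of the active zone. The others are 3 cholinergic, 3 GABAergic and 2 glutamatergic genes, and 3 proteins of dense core granules.

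RNA of 47 libraries of mouse embryonic stem cells (ESC) and of neural progenitor cells (NPC) made from them was sequenced, and the question was how SUZ12, MTF2 and JARID2, a core subunit and 2 accessory subunits of the Polycomb repressive complex PRC2, bear on expression in both states. Each of the 3 proteins was fused to an auxin-inducible degron (AID) in a line of its own, and Tir1, the plant receptor through which auxin has a tagged protein degraded, was present in all lines, controls included. The groups are the SUZ12-AID, MTF2-AID and AID-JARID2 lines and, as their reference, an untagged line, all of strain C57BL/6 and all carrying Tir1; each line was measured as NPC and as ESC, with auxin and untreated. The auxin used was indole-3-acetic acid at 50 µM; NPC received it for 5 days and ESC for 12 hours, and the untreated groups carry the same durations. NPC were made over 72 hours in 10 ng/ml bFGF and a further 48 hours in 500 nM SAG, an activator of hedgehog signalling, and ESC were kept in LIF, CHIR99021 and PD0325901. There were 3 libraries in each of the 16 groups, except for the SUZ12 line as NPC with auxin, which had 2. The sources used here do not say whether a line is 1 clone or whether libraries of a group came from separate cultures, so p-values measure the spread between these libraries, which may be technical. The titles of the MTF2-AID and AID-JARID2 NPC libraries give day 0, whereas their remaining labels give NPC and 5 days.

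At a presynaptic terminal, transmitter is loaded into vesicles by transporters in the vesicle membrane, and vesicles are docked and primed at the active zone by scaffold proteins. Fusion is carried out by SNARE proteins that zip together across the 2 membranes, and synaptotagmins and complexins make it wait for calcium. In many cell types that are not neurons, genes of this kind are held down by the repressor REST, and many developmental genes are held down by PRC2, which places methyl groups on histone H3.

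Values are TPM, transcript abundances scaled for gene length and to the same total in every library, so that levels can be set side by side between genes. The TPM of each gene moved in whole steps, from which whole reads were recovered for all 27296 genes above 0, and these give a depth of 3.24 to 8.71 M reads per library (median 5.39 M). Tests were made with limma on log2(TPM + 0.5) across all genes that reached 1 TPM in at least 2 libraries of the fit, with Benjamini-Hochberg adjustment over all of them. A gene is called changed at an adjusted p under 0.05, and errors on log2 fold changes are standard errors. These log2 fold changes understate the change of genes near 0 TPM. Auxin targets the tagged protein, so the levels of the targeted transcripts do not check the depletion. The Suz12 transcript was higher with auxin, at 163 ± 5.09 TPM on average in the SUZ12 line, against 77.8 ± 1.5 TPM without. The cause of this rise was not tested.

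The start regions of the genes are shown first. RefSeq windows of 300 bases, 250 before and 50 after the start site, on build GRCm38.p6, were available for 29 of the 33 genes; Snap25, Vamp2, Syt4 and Rims2 had no entry. A script searched each window on both strands for the 2 parts of the element that REST is known to bind, TTCAGCACC and GGACAGCG (GGTGCTGAA and CGCTGTCC when read on the other strand). The first part was found in 0.371% of all 32851 windows of the genome and in 3 of the 29 genes, namely Grm2, Syn1 and Unc13a. The second was found in 1.26% of all windows and in Gad2 and Unc13a. The windows of Grm2 (chr9:106656060-106656359, minus strand), Syn1 (chrX:20920869-20921168, minus strand) and Unc13a (chr8:71671708-71672007, minus strand) follow with the matched letters in capitals, each read 5′ to 3′ on the strand of the gene. Syn2 (chr6:115134652-115134951, plus strand), a gene without a match, is added and was chosen after its values were seen. Its level was not called with auxin in NPC of any line.
Grm2: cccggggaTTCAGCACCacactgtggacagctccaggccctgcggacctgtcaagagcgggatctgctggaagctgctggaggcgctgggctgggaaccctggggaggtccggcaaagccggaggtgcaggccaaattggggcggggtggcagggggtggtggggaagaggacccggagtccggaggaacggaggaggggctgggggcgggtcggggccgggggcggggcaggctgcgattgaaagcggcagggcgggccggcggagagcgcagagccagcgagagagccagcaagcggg
Syn1: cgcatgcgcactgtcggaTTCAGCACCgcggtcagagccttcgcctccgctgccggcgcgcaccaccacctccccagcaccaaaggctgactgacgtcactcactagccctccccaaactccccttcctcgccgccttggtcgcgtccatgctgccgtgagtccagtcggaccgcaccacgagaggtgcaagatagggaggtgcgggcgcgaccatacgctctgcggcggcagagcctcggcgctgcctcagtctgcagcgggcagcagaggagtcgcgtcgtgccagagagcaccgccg
Unc13a: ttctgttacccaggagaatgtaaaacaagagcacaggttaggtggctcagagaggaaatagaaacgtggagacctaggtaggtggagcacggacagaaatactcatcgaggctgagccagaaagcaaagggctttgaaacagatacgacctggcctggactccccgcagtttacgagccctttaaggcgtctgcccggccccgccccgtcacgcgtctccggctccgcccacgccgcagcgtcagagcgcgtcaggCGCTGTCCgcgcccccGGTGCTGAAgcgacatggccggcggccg
Syn2: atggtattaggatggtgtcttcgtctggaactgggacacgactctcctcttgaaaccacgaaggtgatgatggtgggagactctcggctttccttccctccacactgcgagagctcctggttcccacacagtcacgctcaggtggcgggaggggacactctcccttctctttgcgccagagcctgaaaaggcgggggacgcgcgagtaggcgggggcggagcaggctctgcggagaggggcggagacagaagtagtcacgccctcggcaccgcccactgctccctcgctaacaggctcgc
The match lay 242 bases before the start site in Grm2 and 232 bases before it in Syn1. In Unc13a both parts lay on the opposite strand, 23 and 7 bases after the start site. A match describes the letters of the window and is not a bound site. The remaining genes with a window held no match to the first part. With auxin in SUZ12 NPC, 26 of the 28 genes tested were called lower, with or without a match, where 33% of all genes were. Syt11, Syp, Slc18a3, Chgb and Scg3 are examples without a match to the first part. Syn2 and Rims1, also without one, were not called. Any relation between the matches and the levels was not tested. The windows of the genes were also rich in CG pairs: the median over the 29 genes, taking the highest window of each, was 21 pairs, against 7 over all windows, and 28 of the 29 genes were at or above 7.

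In untreated cells of the untagged line most of the genes were far higher in NPC than in ESC. Among the 29 genes that passed the filter, 26 were higher and 2 were lower in NPC, where 76.1% of all 17760 genes tested were called, 47.6% were called higher and 28.5% lower. Their median log2 fold change was 2.91, against 0.28 over all genes tested; with Chat and Syn2, which had no read in ESC, placed at the lower bound of their fold, it was 3.11. Genes that passed the filter only through their NPC level had to differ, so the count describes the genes and lends no further weight. Without the filter 29 of the 33 were called higher. Rescaling all libraries by the median of ratios moved the median of all genes by -0.28 and the share of calls that were higher to 50.2%, from 62.6%, and left 26 of the genes higher and 2 lower. In the SUZ12, MTF2 and JARID2 lines 27, 27 and 25 of the 29 were higher in NPC and 2, 1 and 2 were lower. Of all genes, 76.8%, 74.9% and 73.4% were called in these lines, 50.2%, 48.2% and 47.1% were higher and 26.6%, 26.7% and 26.3% were lower.

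The most abundant of the genes in untreated untagged NPC was Syt11, a synaptotagmin that does not bind calcium, with 93.7, 92.5 and 87.8 TPM, against 4.27, 1.54 and 2.51 TPM in ESC (log2 fold change 4.90 ± 0.17, adjusted p 5.07e-25). Slc18a3, the transporter that loads acetylcholine into vesicles, came next with 96.7, 87.5 and 79.9 TPM in NPC, whereas in ESC a single read was counted over the 3 libraries. The ranges of these 2 genes overlapped in NPC and lay far apart from ESC. Vamp2, the main vesicle SNARE, followed with 52.3 ± 4.96 TPM in NPC and 23.9 ± 2.92 TPM in ESC (SD, n = 3 each). It was the highest of the genes in ESC, where Chga, Syn1, Rab3a and Stx1a were the next 4. In all, 28 of the genes averaged at least 1 TPM in untagged NPC and 11 did in ESC; at least 10 TPM was reached by 15 in NPC and by 3 in ESC.

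Several of the genes had almost no reads in ESC. Chat, the enzyme that makes acetylcholine, had 0 reads over the 3 untagged ESC libraries and 9.56, 7.99 and 7.10 TPM in NPC, a level at least 55.2-fold higher when ESC is set at 3 reads over the group. Syn2, a synapsin that tethers vesicles, likewise had 0 reads in ESC and 2.08, 2.27 and 1.56 TPM in NPC, at least 27.2-fold higher. Snap25, a SNARE of the plasma membrane, had 2 reads in ESC and 36.8, 30.5 and 26.1 TPM in NPC. Chgb and Scg3, a granin and a secretogranin of dense core granules, had 1 and 1 read in ESC and averaged 43.5 ± 2.37 TPM and 19.9 ± 1.07 TPM in NPC. These floors and read numbers cover counting error only.

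Against this pattern, 2 genes were lower in NPC. Rims1, an active zone scaffold, had 1.45, 1.68 and 0.277 TPM in NPC and 3.64, 3.16 and 3.66 TPM in ESC (log2 fold change -1.42 ± 0.26, adjusted p 7.93e-06). Gad1, an enzyme that makes GABA, had 0.251, 0.363 and 0.152 TPM in NPC and 1.41, 2.05 and 0.894 TPM in ESC (log2 fold change -1.34 ± 0.24, adjusted p 4.74e-06). Both were separated completely between the stages, and the NPC level of Gad1 rested on 11 reads. Vamp1, the second vesicle SNARE of the list, averaged 3.69 ± 0.742 TPM in NPC and 3.09 ± 0.265 TPM in ESC, with overlapping ranges (adjusted p 0.404). Of the transmitter genes, Slc5a7 (choline uptake), Gad2 (GABA synthesis) and Slc17a6 (glutamate loading), together with the vesicle protein Sv2c, stayed below 1 TPM on average in NPC of every line.

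**Figure D1:**
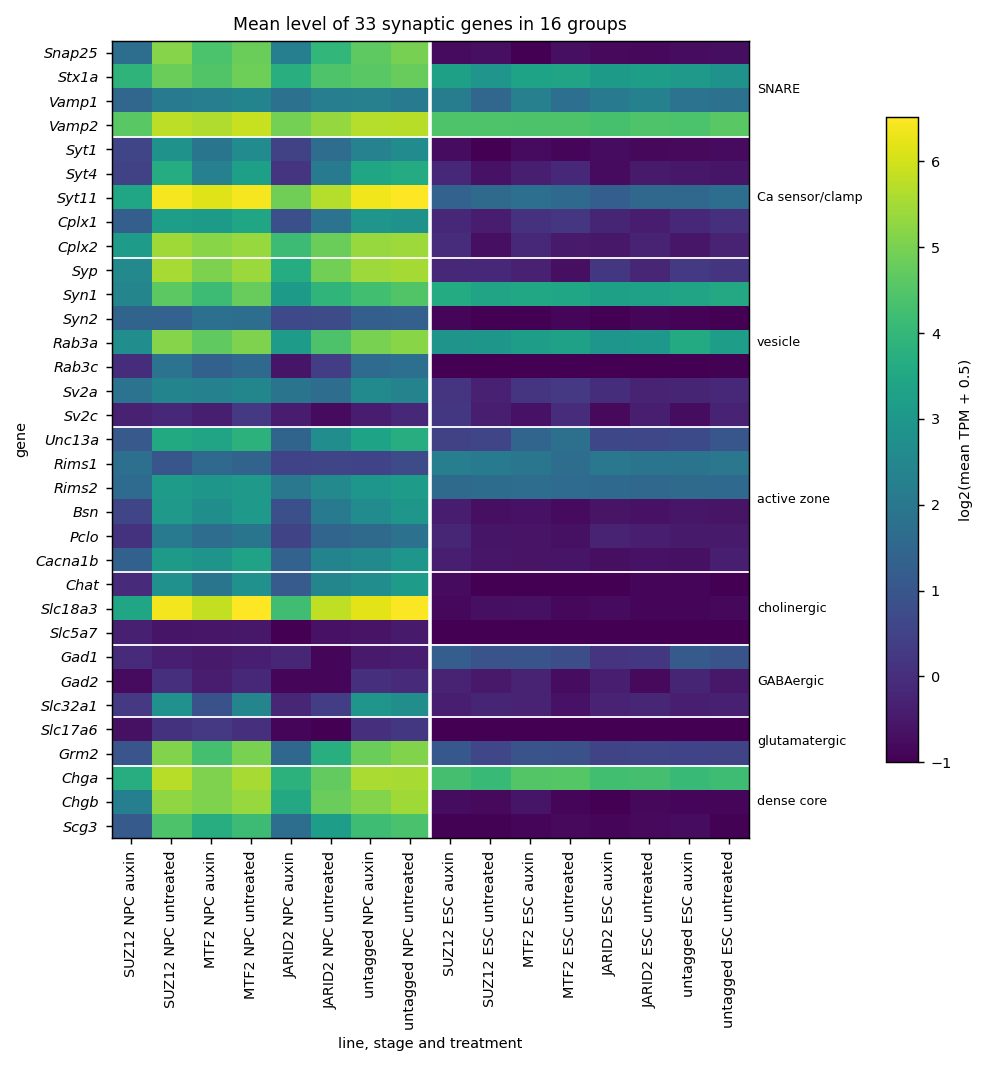
Mean level of each of the 33 genes (rows, by role) in the 16 groups (columns: line, stage and treatment), as log2(mean TPM + 0.5) on a colour scale. Untreated NPC are bright for most rows and ESC are dark for most. The SUZ12 and JARID2 lines with auxin as NPC lie between them for many rows. They lie below ESC of their line in 5 genes (SUZ12) and 3 genes (JARID2).

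Auxin for 5 days lowered most of the genes in NPC of the SUZ12 line. Of the 28 genes that passed the filter, 26 were lower with auxin, none was higher, and Syn2 and Rims1 were not called. Of all 16469 genes tested, 56.9% were called and 33% were lower. Several of the 28, such as Syt1, Syt4, Pclo, Rab3c, Chat and Slc32a1, averaged under 1 TPM with auxin and passed through other NPC groups. The count thus describes the genes and lends no further weight. The same limit holds for the NPC counts of the JARID2 line and for the differences between lines. The median log2 fold change of the genes was -2.31, against -0.10 over all genes tested. Over all 33 genes, every auxin library lay below every untreated library in 27, where this was so for 42.5% of genes tested, and above in Rims1 and Gad1, where it was so for 30.9%. Rescaling by the median of ratios moved the median of all genes by 0.12 and the higher share of all calls to 54.1%, from 42.0%; 25 of the genes were then lower and Rims1 was called higher. The auxin group holds 2 libraries. In bulk libraries such as these, fewer neurons and less of each transcript per neuron cannot be told apart.

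Among the SNARE proteins, Snap25 had 2.86 and 2.79 TPM in the SUZ12 line with auxin, against 37.0, 31.1 and 36.8 TPM untreated (log2 fold change -3.41 ± 0.17, adjusted p 4.16e-13). The other 3 kept more of their level. Stx1a, the syntaxin of the plasma membrane, had 14.1 and 14.3 TPM with auxin and 32.1, 26.1 and 26.0 TPM untreated (log2 fold change -0.95 ± 0.18, adjusted p 1.61e-04). Vamp2 had 24.1 and 23.7 TPM with auxin and 58.2, 56.5 and 47.8 TPM untreated (log2 fold change -1.16 ± 0.13, adjusted p 1.42e-07), so that with auxin it was the highest of all 33 genes. Vamp1 had 2.11 and 2.44 TPM with auxin and 3.54, 4.57 and 3.45 TPM untreated (log2 fold change -0.64 ± 0.20, adjusted p 0.00878), a call that was lost with limma voom on the recovered reads (adjusted p 0.0697) and without SUZ12 NPC auxin replicate 1 (adjusted p 0.0803). In each of the 4 the auxin libraries lay below all untreated ones, and Snap25 was left at 8.07% of its untreated mean, against 50.6% for Stx1a, 44.1% for Vamp2 and 59.1% for Vamp1.

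All 5 synaptotagmins and complexins fell. Syt1, the calcium sensor of fast release, had 0.932 and 1.02 TPM with auxin and 7.13, 6.68 and 6.54 TPM untreated (log2 fold change -2.30 ± 0.22, adjusted p 9.34e-09). Syt4, a synaptotagmin of dense core and vesicle traffic, had 0.849 and 0.932 TPM with auxin and 12.2, 10.3 and 14.1 TPM untreated (log2 fold change -3.18 ± 0.22, adjusted p 9.55e-11). Syt11 had 8.97 and 11.8 TPM with auxin and 88.2, 83.6 and 84.0 TPM untreated (log2 fold change -2.99 ± 0.10, adjusted p 5.74e-16). None of these ranges overlapped, and Syt11, the most abundant of the genes in untreated NPC of this line, was the fourth with auxin. The complexins Cplx1 and Cplx2, which clamp the SNARE complex until calcium enters, averaged 1.94 ± 0.325 TPM and 8.29 ± 0.473 TPM with auxin and 8.80 ± 2.22 TPM and 43.2 ± 1.42 TPM untreated (SD, n = 2 with auxin and 3 untreated). Cplx2 had a log2 fold change of -2.31 ± 0.09 (adjusted p 4.83e-15) and Cplx1 one of -1.91 ± 0.25 (adjusted p 1.42e-06).

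Among the vesicle proteins, Syp, or synaptophysin, an abundant membrane protein of the vesicle, had 4.87 and 5.75 TPM with auxin and 51.0, 41.7 and 46.4 TPM untreated (log2 fold change -3.01 ± 0.13, adjusted p 1.28e-14). Rab3a, the small GTPase that guides vesicles to the active zone, had 6.11 and 5.80 TPM with auxin and 38.1, 30.8 and 36.0 TPM untreated (log2 fold change -2.45 ± 0.14, adjusted p 4.38e-12). Its relative Rab3c, at a far lower level, averaged 0.485 ± 0.0147 TPM with auxin and 3.11 ± 0.446 TPM untreated (limma, adjusted p 1.92e-07). The auxin and untreated libraries were separated in all of these. The synapsins differed from each other. Syn1 had 5.83 and 3.87 TPM with auxin and 24.3, 25.8 and 22.5 TPM untreated (log2 fold change -2.23 ± 0.17, adjusted p 4.90e-10), whereas Syn2 had 2.31 and 2.10 TPM with auxin and 2.58, 1.35 and 2.25 TPM untreated (log2 fold change 0.11 ± 0.26, adjusted p 0.744; 95% interval -0.43 to 0.65). Sv2a, a vesicle glycoprotein, had 3.72 and 2.61 TPM with auxin and 5.01, 3.97 and 5.28 TPM untreated, a difference close to the threshold (log2 fold change -0.53 ± 0.22, adjusted p 0.0489). The Sv2a call was lost in 5 other settings (adjusted p 0.0515 to 0.114) and without SUZ12 NPC untreated replicate 1 or 3 or auxin replicate 2 (adjusted p 0.109 to 0.39). Sv2c, which did not pass the filter, rested on 7 reads with auxin and 15 untreated.

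At the active zone, 5 of the 6 genes fell. Unc13a, the Munc13 protein that primes vesicles, had 1.94 and 1.34 TPM with auxin and 13.5, 10.4 and 9.92 TPM untreated (log2 fold change -2.46 ± 0.17, adjusted p 8.40e-11). The giant scaffolds Bsn (bassoon) and Pclo (piccolo) had 0.925 and 1.07 TPM and 0.657 and 0.511 TPM with auxin and averaged 7.97 ± 0.859 TPM and 3.77 ± 0.242 TPM untreated, with log2 fold changes of -2.50 ± 0.15 (adjusted p 8.64e-12) and -1.98 ± 0.21 (adjusted p 5.88e-08). Cacna1b, the pore of the N-type calcium channel that opens next to docked vesicles, had 2.15 and 1.86 TPM with auxin and 8.49, 8.14 and 7.69 TPM untreated (log2 fold change -1.78 ± 0.18, adjusted p 3.13e-08). In these 4 genes no auxin library reached the untreated range. The RIM proteins, which tether vesicles and channels, went apart. Rims2 had 2.83 and 2.36 TPM with auxin and 8.27, 9.13 and 7.53 TPM untreated (log2 fold change -1.51 ± 0.14, adjusted p 9.31e-09). Rims1 had 3.05 and 2.68 TPM with auxin and 1.60, 1.65 and 1.24 TPM untreated, with both auxin libraries above all untreated ones, and was not called (log2 fold change 0.76 ± 0.36, adjusted p 0.0832); it was called higher after median-of-ratios scaling (adjusted p 0.0465), with limma voom on the recovered reads (0.00446) and in a fit of these 2 groups alone (0.0133).

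The cholinergic genes fell strongly. Slc18a3 had 8.28 and 12.0 TPM with auxin and 84.4, 76.9 and 86.8 TPM untreated (log2 fold change -2.99 ± 0.11, adjusted p 3.20e-15). Chat had 0.593 and 0.260 TPM with auxin, from 6 reads, and 6.02, 6.51 and 6.99 TPM untreated (log2 fold change -2.94 ± 0.22, adjusted p 2.36e-10). Slc18a3 lies within the bounds of Chat on the same strand in GENCODE M21, so the split of reads between the 2 genes is uncertain. In untreated NPC of this line Chat stood at 7.89% ± 0.681 of the TPM of Slc18a3 (SD, n = 3), and with auxin at 2.17% and 7.16% in the 2 libraries. Slc5a7 had 8 reads with auxin and 8 untreated.

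Of the GABAergic and glutamatergic genes, 2 passed the filter, Slc32a1 and Grm2, and Slc32a1 was below 1 TPM with auxin. Slc32a1, the transporter that loads GABA and glycine into vesicles, had 0.446 and 0.913 TPM with auxin and 7.36, 6.24 and 5.88 TPM untreated (log2 fold change -2.59 ± 0.37, adjusted p 4.30e-06). The enzymes that make GABA stayed low in both groups: Gad2 averaged 0.0800 ± 0.0509 TPM with auxin and 0.517 ± 0.0654 TPM untreated, and Gad1 averaged 0.450 ± 0.0655 TPM with auxin and 0.282 ± 0.0907 TPM untreated. Without the filter Gad2 was called lower with auxin (limma, log2 fold change -0.81, adjusted p 0.00631), also against the untagged line (adjusted p 0.0255). Grm2, a metabotropic glutamate receptor that damps release, had 1.63 and 1.32 TPM with auxin and 37.7, 31.2 and 32.1 TPM untreated (log2 fold change -4.11 ± 0.13, adjusted p 1.62e-16). This was the lowest share of the untreated level among the genes, 4.39%. Slc17a6 rested on 3 reads with auxin and 22 untreated.

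The dense core granule genes fell too. Chga, or chromogranin A, had 11.6 and 13.0 TPM with auxin and 46.6, 56.6 and 53.1 TPM untreated (log2 fold change -2.04 ± 0.12, adjusted p 5.95e-12). Chgb, or chromogranin B, had 3.66 and 4.82 TPM with auxin and 41.1, 36.0 and 38.1 TPM untreated (log2 fold change -3.05 ± 0.14, adjusted p 6.34e-14). Scg3, or secretogranin III, had 1.53 and 1.85 TPM with auxin and 22.3, 19.8 and 20.9 TPM untreated (log2 fold change -3.30 ± 0.14, adjusted p 1.13e-14). None of the auxin libraries came near the untreated range, and Chga kept 23.6% of its untreated mean, against 11% for Chgb and 8.05% for Scg3.

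**Figure D2:**
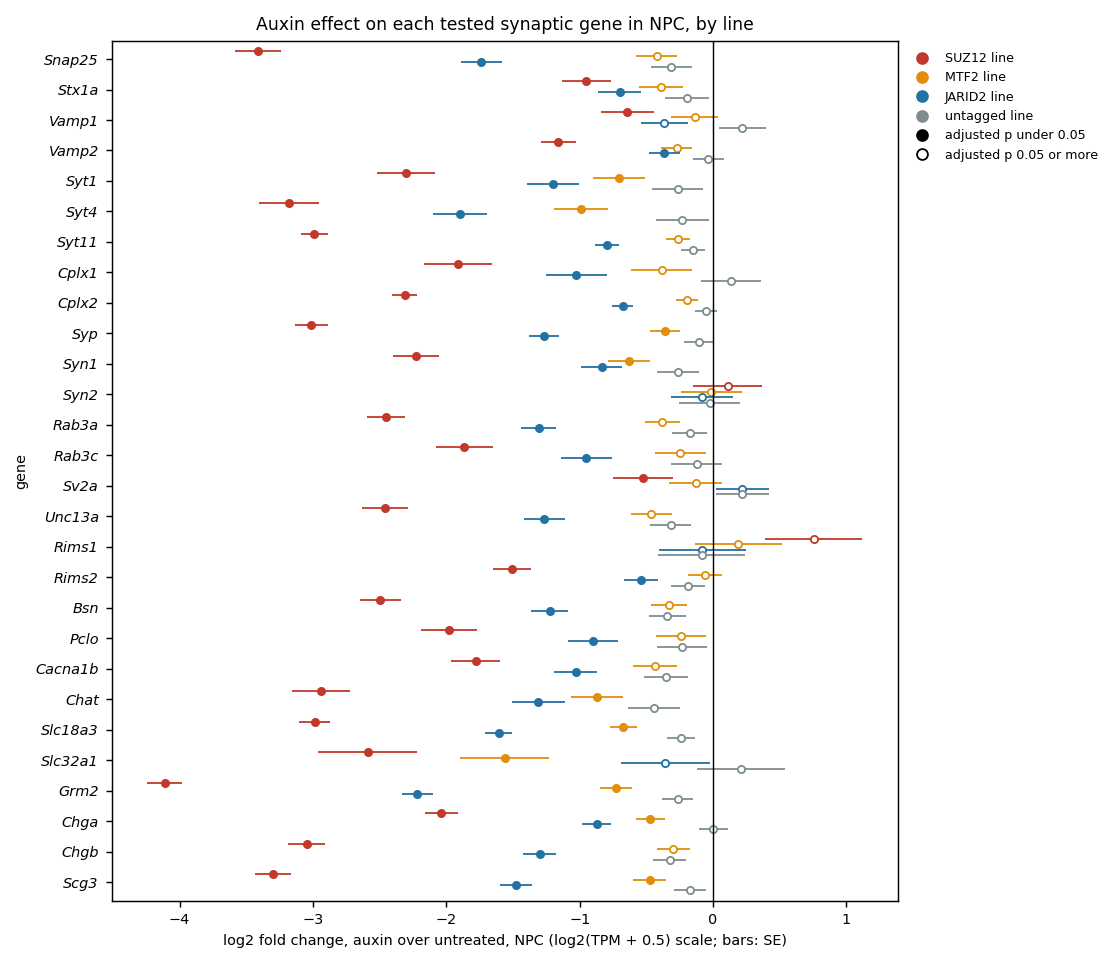
Log2 fold change of auxin over untreated in NPC for each of the 28 tested genes (rows) in the 4 lines (colours), with standard errors as bars; filled points have an adjusted p under 0.05. The SUZ12 points lie farthest left for 26 genes, and none of the untagged points is filled.

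The genes that kept or lost their level were also set against ESC of the same line, since ESC mark the level before differentiation. With auxin, NPC of the SUZ12 line lay above all untreated ESC libraries of that line in 21 of the 33 genes, where 55.8% of all genes did, and below them in 5, where 22.8% did. The 5 were Syn1, Rims1, Gad1, Chga and Gad2. Syn1 had 5.83 and 3.87 TPM in these NPC and 10.1, 10.1 and 9.76 TPM in ESC, and Chga had 11.6 and 13.0 TPM in these NPC and 18, 17.4 and 14.8 TPM in ESC. In untreated NPC of the line both genes lay above the ESC range, at 24.2 TPM and 52.1 TPM on average. In the JARID2 line with auxin the corresponding counts were 22 above, where 47.7% of all genes were, and 3 below, where 22.2% were. These comparisons across stages were not tested beyond the separation of the libraries.

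NPC of the JARID2 line differed already without auxin. Of the 28 genes tested, 23 were lower and none was higher in untreated JARID2 NPC than in untreated untagged NPC, where 23.8% of all genes were called and 12% were lower. The median log2 fold change of the genes was -0.66, against -0.01 over all genes tested. Over all 33 genes, every JARID2 library lay below every untagged library in 28, against 19.5% of all genes tested, and above in none, against 17.6%. The SUZ12 and MTF2 lines had 0 of the 28 genes called in the same comparison, with 0.814% and 8.76% of all genes called, and 0 and 3 of the genes at an unadjusted p under 0.05.

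The gap was widest for Slc32a1, which had 0, 1.12 and 1.22 TPM in untreated JARID2 NPC and 7.27, 6.53 and 4.60 TPM in untreated untagged NPC (log2 fold change -2.55 ± 0.33, adjusted p 5.38e-06). Syt4 had 4.53, 4.26 and 2.48 TPM in JARID2 NPC and 12.6, 12.0 and 11 TPM in untagged NPC (log2 fold change -1.57 ± 0.20, adjusted p 4.07e-06). Rab3c had 0.849, 0.960 and 0.580 TPM in JARID2 NPC and 3.12, 2.83 and 2.66 TPM in untagged NPC (log2 fold change -1.39 ± 0.19, adjusted p 1.10e-05). No library of these 3 genes crossed between the lines. Grm2 (-1.36), Scg3 (-1.17), Unc13a (-1.0) and Snap25 (-0.99) followed by log2 fold change. Vamp1 averaged 4.15 ± 0.818 TPM in JARID2 NPC and 3.69 ± 0.742 TPM in untagged NPC, and Stx1a averaged 21.2 ± 4.54 TPM in JARID2 NPC and 27 ± 3.18 TPM in untagged NPC; neither was called (adjusted p 0.604 and 0.126), although Stx1a was called lower with limma voom (adjusted p 0.0363) and without JARID2 NPC untreated replicate 1 (adjusted p 0.0397). As ESC, untreated, the JARID2 and SUZ12 lines had 0 of 13 tested genes called against the untagged line, with 6.31% and 1.65% of all genes called, and 2 and 0 of the genes at an unadjusted p under 0.05. The MTF2 line had 3 called, all higher, where 15.7% of all genes were called and 7.32% were higher. These were Stx1a with 11.2, 10.4 and 8.54 TPM in MTF2 ESC and 5.68, 7.76 and 6.53 TPM in untagged ESC, Unc13a with means of 2.94 TPM and 1.53 TPM, and Chga with means of 22.8 TPM and 17.6 TPM, in the same order of lines. None of the 3 was called without untagged ESC replicate 1, and 1 was called without untagged ESC replicate 2 or without MTF2 ESC replicate 2.

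Auxin lowered the genes further in the JARID2 line. Of the 28 tested, 23 were lower than in untreated NPC of the same line and none was higher, where 25% of all genes were called and 15.7% were lower. The median log2 fold change was -0.99, against -0.04 over all genes tested. Over all 33 genes, the auxin libraries lay below the untreated ones without overlap in 24, where 21.5% of all genes did, and above them in 1, Gad1, where 14.3% did. The share of all calls that were higher was 37.1%, and 50.5% after median-of-ratios scaling, under which 23 of the genes were still lower. Vamp1, Syn2, Sv2a, Rims1 and Slc32a1 were not called. Without the filter Gad1 was called higher (limma, log2 fold change 0.70, adjusted p 0.0387), at means of 0.367 TPM with auxin and 0.0315 TPM untreated.

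Grm2 again kept little, with 2.62, 2.31 and 2.15 TPM in the JARID2 line with auxin and 15.7, 11.2 and 11.9 TPM untreated (log2 fold change -2.22 ± 0.12, adjusted p 1.10e-11). Syt4 had 0.701, 0.390 and 0.795 TPM with auxin and 4.53, 4.26 and 2.48 TPM untreated (log2 fold change -1.90 ± 0.20, adjusted p 3.01e-07), the lowest kept share of this line, at 16.7%, among the 25 genes that averaged at least 1 TPM in untreated NPC of every line. Snap25 had 5.24, 3.50 and 4.08 TPM with auxin and 16.7, 16.3 and 13.0 TPM untreated (log2 fold change -1.74 ± 0.16, adjusted p 2.85e-08). These 3 genes were separated completely by treatment. Slc18a3 had 18.6, 19.3 and 16.1 TPM with auxin and 58.7, 56.9 and 51.7 TPM untreated (log2 fold change -1.61 ± 0.10, adjusted p 1.70e-10), and Chat averaged 1.72 ± 0.253 TPM with auxin and 5.00 ± 0.662 TPM untreated (limma, adjusted p 3.10e-05). Scg3 had 2.95, 2.52 and 2.82 TPM with auxin and 10.6, 8.64 and 6.89 TPM untreated (log2 fold change -1.48 ± 0.12, adjusted p 8.16e-09). Unlike in the SUZ12 line, Syt11 and Cplx2 kept over 57% of their untreated means, with 29.4, 26.1 and 31.1 TPM for Syt11 with auxin and 56.5, 46.3 and 48.6 TPM untreated, and 17.5, 16.1 and 18.6 TPM for Cplx2 with auxin and 31.6, 26.1 and 26.8 TPM untreated. Of the genes called, Vamp2 kept most, with 33.9, 30.4 and 27.4 TPM with auxin and 48.9, 36.5 and 34.3 TPM untreated (log2 fold change -0.36 ± 0.12, adjusted p 0.0254). The Vamp2 call was lost in the fit to the compared groups alone (adjusted p 0.0875) and without JARID2 NPC untreated replicate 1, auxin replicate 2 or auxin replicate 3 (adjusted p 0.0591 to 0.194). Slc32a1 had 7 reads with auxin and 13 untreated, and was not called (log2 fold change -0.36 ± 0.33, adjusted p 0.48). Without untreated JARID2 NPC replicate 1, the library with 0 TPM, Slc32a1 was called lower with auxin (log2 fold change -0.94, adjusted p 0.00897), also against the untagged line (difference -1.15, adjusted p 0.0345).

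In the MTF2 line fewer of the genes were called. Auxin left 10 of the 28 lower and none higher, where 8.14% of all genes were called and 3.11% were lower, and the median log2 fold change was -0.38, against 0.03 over all genes tested. The 10 were Syt1, Syt4, Syp, Syn1, Chat, Slc18a3, Slc32a1, Grm2, Chga and Scg3. Over all 33, the auxin libraries lay below the untreated ones in 21, where 9.62% of all genes did, and above them in none, where 15.1% did. The count moved with the setting: it was 15 after median-of-ratios scaling, which took the higher share of all calls to 47.3%, from 61.8%, 16 with limma voom on the recovered reads, and 6 without untreated MTF2 NPC replicate 3, when Syp, Syn1, Chga and Scg3 were no longer called.

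The change was largest for Slc32a1, which had 1.35, 0.877 and 1.84 TPM with auxin and 5.01, 4.31 and 5.31 TPM untreated (log2 fold change -1.56 ± 0.33, adjusted p 0.00522), a call lost with a pseudocount of 0.1 (adjusted p 0.0908). Syt4 had 5.11, 4.85 and 3.20 TPM with auxin and 9.78, 9.43 and 8.02 TPM untreated (log2 fold change -0.99 ± 0.20, adjusted p 0.00364). The cholinergic pair fell as well: Slc18a3 had 56.9, 58.6 and 52.7 TPM with auxin and 86.1, 94.4 and 88.5 TPM untreated (log2 fold change -0.67 ± 0.10, adjusted p 3.01e-04). Chat had 3.86, 3.28 and 2.63 TPM with auxin and 4.50, 8.11 and 6.88 TPM untreated (log2 fold change -0.87 ± 0.20, adjusted p 0.00767), a call lost in the fit to the compared groups alone (adjusted p 0.0602) and without MTF2 NPC untreated replicate 2 (adjusted p 0.0568). Grm2 had 20.6, 18.3 and 18.2 TPM with auxin and 33.1, 31.7 and 30.7 TPM untreated (log2 fold change -0.73 ± 0.12, adjusted p 5.71e-04). In all 5 no auxin library reached the untreated range. The SNARE and active zone genes had no call in this line with limma; Snap25, for example, had 20.3, 16.6 and 25.1 TPM with auxin and 32.1, 23.9 and 27.1 TPM untreated, with overlapping ranges (log2 fold change -0.42 ± 0.16, adjusted p 0.1). This lack of calls depended on the setting. Snap25 and Unc13a were called lower after median-of-ratios scaling (adjusted p 0.0479 and 0.0301) and, with Cacna1b and Bsn, in limma voom, and Vamp2 was called in the fit to the compared groups alone (adjusted p 0.0479).

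**Figure D3:**
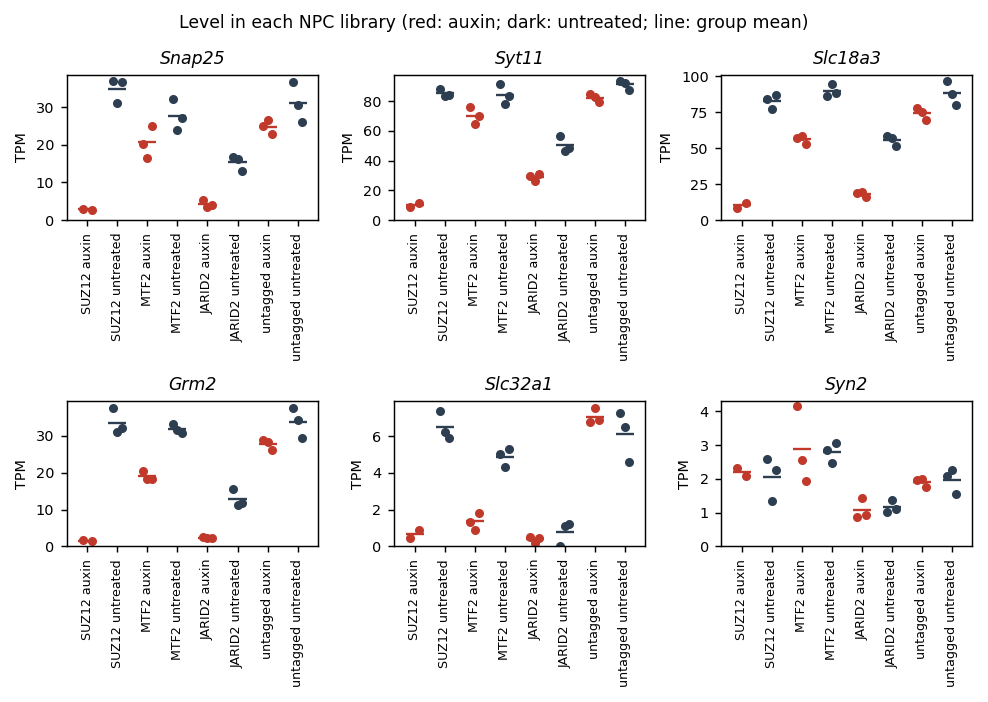
TPM of Snap25, Syt11, Slc18a3, Grm2, Slc32a1 and Syn2 in every NPC library, by line and treatment; points are libraries and bars are group means. Slc32a1 is low in both JARID2 groups and in the MTF2 and SUZ12 lines with auxin, while Syn2 overlaps between treatments in every line.

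Auxin itself, without a tagged protein, was tested in the untagged line. None of the 28 genes was called in untagged NPC with limma, where 0% of all genes were called; 6 of the genes had an unadjusted p under 0.05. Their median log2 fold change was -0.18, against -0.02 over all genes tested, and 23 of the 28 were below 0. Over all 33 genes, the auxin libraries lay below the untreated ones in 8, where 8.73% of all genes did, and above them in none, where 4.4% did. Slc18a3, as an example, had 77.8, 75.2 and 69.8 TPM with auxin and 96.7, 87.5 and 79.9 TPM untreated (log2 fold change -0.24 ± 0.10, adjusted p 0.654). The shift of the genes in untagged cells was thus small and mostly downward, and it was taken into account in the differences between lines that follow.

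The auxin effect of each tagged line was compared with that of the untagged line; these 3 comparisons share the untagged libraries. In the SUZ12 line the effect was lower than in the untagged line for 26 of the 28 genes, where 43.5% of all genes were called and 24.7% were lower. For Grm2 the difference in log2 fold change was -3.85 ± 0.18 (adjusted p 2.05e-13), and for Sv2a, the called gene with the highest adjusted p, it was -0.74 ± 0.30 (adjusted p 0.0491), a call lost in 4 other settings (adjusted p 0.0537 to 0.074) and when any of 8 single libraries was left out (adjusted p 0.0518 to 0.249). In the JARID2 line the effect was lower for 15 of the 28, where 9.04% of all genes were called and 5.94% were lower. The differences were -1.95 ± 0.17 for Grm2 and -1.43 ± 0.22 for Snap25 (adjusted p 8.25e-08 and 1.44e-04). Syt1 lost this call in 9 alternatives and Cplx1 in 7, libraries left out included. In the MTF2 line none of the 28 was called with limma, where 1.4% of all genes were, and 5 had an unadjusted p under 0.05. For Slc32a1 this difference was -1.77 ± 0.47 (adjusted p 0.0635; 95% interval -2.75 to -0.79). For this line the outcome depended on the setting: Slc32a1 was called with a pseudocount of 1 (adjusted p 0.0235), with limma voom (adjusted p 0.0141) and in the fit to the compared groups alone (adjusted p 0.0135), and Slc18a3 with limma voom (adjusted p 0.0144).

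The tagged lines were also compared with each other. The auxin effect in the SUZ12 line was lower than in the JARID2 line for 22 of the 28 genes, where 31.1% of all genes were called and 17.6% were lower. The difference in log2 fold change was -2.23 ± 0.50 for Slc32a1 (adjusted p 0.00165) and -2.19 ± 0.14 for Syt11 (adjusted p 1.04e-10), whereas Stx1a (-0.25 ± 0.25, adjusted p 0.483) and Vamp1 (-0.28 ± 0.27, adjusted p 0.468) were not called. The effect in the SUZ12 line was lower than in the MTF2 line for 22 of the 28, where 43% of all genes were called and 27.2% were lower. The effect in the MTF2 line was higher than in the JARID2 line for 12 of the 28, where 9.64% of all genes were called and 7.82% were higher. Grm2 (1.49 ± 0.17, adjusted p 4.23e-06) and Snap25 (1.31 ± 0.22, adjusted p 4.36e-04) were among the 12. Syt4 lost this call in 13 alternatives and Unc13a in 5, libraries left out included. With 1 library left out the count was 10 to 13.

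The order of the genes by effect was similar in the SUZ12 and JARID2 lines. Across the 28 genes, which are not independent replicates and share their libraries, the log2 fold changes of both lines had a Pearson r of 0.859 and a Spearman rho of 0.817. With the MTF2 line the Pearson r was 0.596 and the rho 0.627 for the SUZ12 line, and they were 0.434 and 0.629 for the JARID2 line. Among the 25 genes that averaged at least 1 TPM in untreated NPC of every line, the share of the untreated level kept with auxin had a median of 15.5% in the SUZ12 line (4.39% to 107%). The medians were 76.0% in the MTF2 line (48.4% to 103%), 41.3% in the JARID2 line (16.7% to 119%) and 86.7% in the untagged line (72.0% to 118%).

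**Figure D4:**
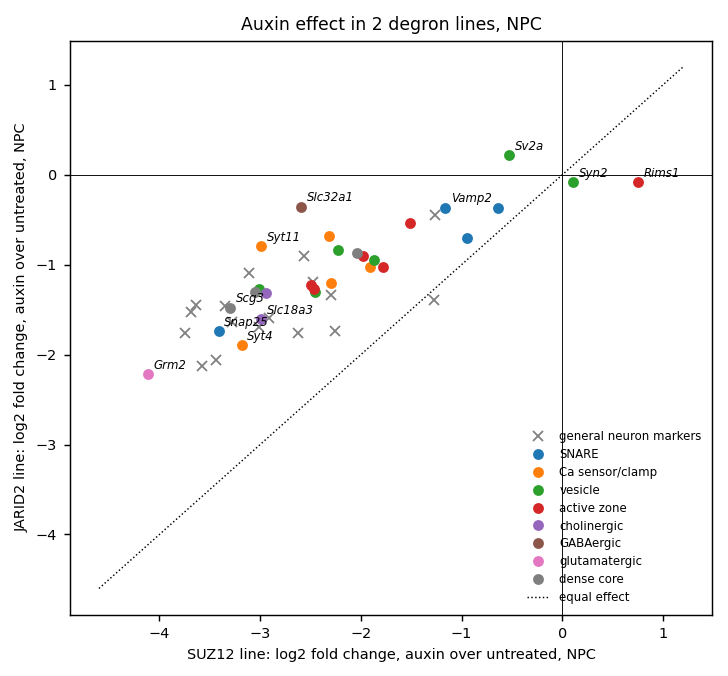
Log2 fold change of auxin over untreated in NPC of the SUZ12 line (x axis) and of the JARID2 line (y axis) for the 28 tested genes, coloured by role, and for 17 general neuron markers (crosses); the dotted line marks equal effects. All points but those of Syn2, Rims1 and 1 marker lie above the dotted line, with a Pearson r of 0.859 over the 28 genes.

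In ESC, where auxin was given for 12 hours, none of the 13 genes that passed the filter was called with limma in any line. All genes called were 6.83% in the SUZ12 line, 1.09% in the MTF2 line, 0.298% in the JARID2 line and 0.212% in the untagged line. At an unadjusted p under 0.05 there were 2, 1, 0 and 1 of the 13 genes, in that order of lines. The median log2 fold change of the genes in the SUZ12 line was 0.18, against 0.09 over all genes tested. Vamp1 had the lowest adjusted p, 0.0953 in the SUZ12 line, and was called higher there with limma voom on the recovered reads (adjusted p 0.0248). No difference between the SUZ12 and the untagged line was called among the genes in ESC, where 0.192% of all genes were. Auxin lasted longer in NPC than in ESC, so that duration and stage cannot be told apart.

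The summed level of the 33 genes put these results on 1 scale. It averaged 130.5 ± 3.54 TPM in SUZ12 NPC with auxin (SD, n = 2) and 676 ± 27.8 TPM untreated (n = 3). In the MTF2 line it was 496 ± 22.6 TPM with auxin and 665 ± 10.4 TPM untreated, and in the JARID2 line 194 ± 9.32 TPM with auxin and 399 ± 34.3 TPM untreated (SD, n = 3 each). In the untagged line it was 598 ± 37.7 TPM with auxin and 672 ± 53.2 TPM untreated (SD, n = 3 each). All 24 ESC libraries lay between 77.1 and 97.4 TPM. The SUZ12 libraries with auxin were thus the lowest of all NPC libraries and still above all ESC libraries.

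**Figure D5:**
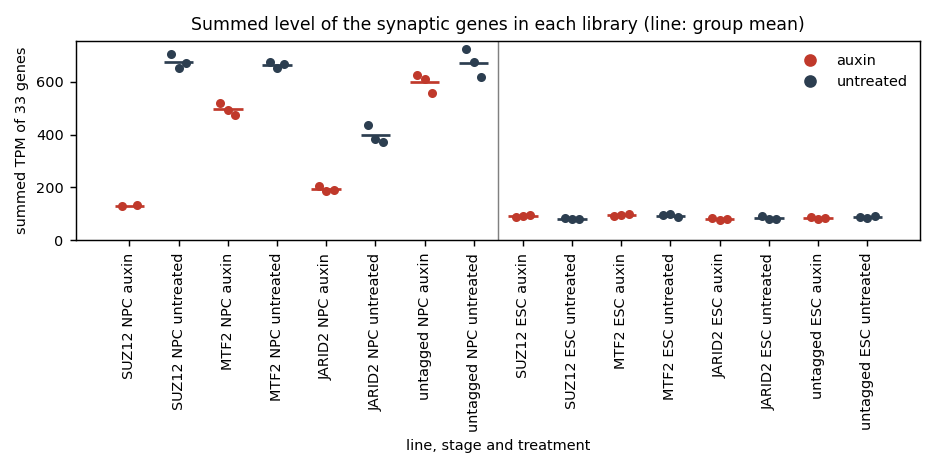
Summed TPM of the 33 genes in each of the 47 libraries (points), with group means as bars, by line, stage and treatment. The SUZ12 NPC libraries with auxin lie at 128.0 and 133.0 TPM, below every other NPC library.

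With auxin in SUZ12 NPC, markers of neurons and neural progenitors were lower, as were most of the genes. Pluripotency markers and most mesoderm and muscle markers were higher. The part of these cell types in the results was not tested. All 17 general neuron markers tested were lower with auxin in SUZ12 NPC and in JARID2 NPC, 13 were in MTF2 NPC and none in untagged NPC. Of all genes tested, 56.9% were called and 33% were lower with auxin in SUZ12 NPC. These shares were 8.14% and 3.11% in MTF2 NPC, 25% and 15.7% in JARID2 NPC, and no gene was called in untagged NPC. Of all calls, 42.0%, 61.8% and 37.1% were higher in the SUZ12, MTF2 and JARID2 lines. The summed level of the neuron markers was 791 to 863 TPM in SUZ12 NPC with auxin and 5976 to 6261 TPM untreated. It was 1188 to 1275 TPM in JARID2 NPC with auxin and 3169 to 3637 TPM untreated. In untagged NPC it was 5299 to 5478 TPM with auxin and 5891 to 6395 TPM untreated, also without overlap. The summed level of the 33 genes came to 0.158 ± 0.005 of that of the neuron markers in SUZ12 NPC with auxin (SD, n = 2) and to 0.111 ± 0.002 untreated (n = 3). In the JARID2 line this ratio was 0.157 ± 0.013 with auxin and 0.115 ± 0.011 untreated (SD, n = 3 each). In MTF2 NPC it was 0.115 to 0.123 with auxin and 0.112 to 0.120 untreated. In untagged NPC it was 0.105 to 0.118 with auxin and 0.105 to 0.113 untreated. Untreated SUZ12 ESC had neuron marker sums of 847 to 853 TPM, near those of SUZ12 NPC with auxin, and ratios of 0.093 to 0.097. With markers this low, the ratio in SUZ12 NPC does not give a level per neuron, and its cause was not tested. All 13 neural progenitor markers were lower with auxin in SUZ12 NPC, 4 were lower and 1 higher in MTF2 NPC, and 8 were lower and 1 higher in JARID2 NPC; their summed level in SUZ12 NPC was 2029 to 2044 TPM with auxin and 4998 to 5055 TPM untreated. Pluripotency markers were higher with auxin in 11 of 11 in SUZ12 NPC, 4 in MTF2 NPC and 9 in JARID2 NPC, with summed levels in SUZ12 NPC of 1501 to 1530 TPM with auxin and 38.0 to 42.5 TPM untreated. Of 10 mesoderm and muscle markers tested, 9 were higher with auxin in SUZ12 NPC (summed level 360 to 372 TPM with auxin and 72.0 to 93.5 TPM untreated), 4 were in MTF2 NPC and 1 was in JARID2 NPC; Mesp1 of this list was at 0 with auxin in the SUZ12 and JARID2 lines. In untreated JARID2 NPC the neuron markers were lower than in untagged NPC in 17 of 17, and the pluripotency markers were higher in 10 of 11. The mesoderm and muscle markers were higher in 6 of 10. Of all genes, 23.8% were called and 12% were lower in this comparison of untreated lines. The glia markers gave 47.5 to 51.9 TPM in SUZ12 NPC with auxin and 42.3 to 47.4 TPM untreated, with S100b at 0 in both. Endocrine and endoderm markers, some of which mark pancreatic cells that also use granins, summed to 212 to 218 TPM with auxin and 404 to 427 TPM untreated in SUZ12 NPC, where 6 of 11 tested were higher and 5 lower; Ins1 and Gcg were at 0 in both groups.

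Other genes of the same pathways were counted from further lists. Of all genes tested, 56.9% were called and 33% were lower with auxin in SUZ12 NPC. These shares were 25% and 15.7% in JARID2 NPC and 8.14% and 3.11% in MTF2 NPC. Of 51 tested genes of the wider release machinery, 29 were lower and 8 higher with auxin in SUZ12 NPC, 18 lower and 1 higher in JARID2 NPC, and 3 lower in MTF2 NPC. Cadps, which primes dense core granules, averaged 1.23 ± 0.238 TPM with auxin and 10.2 ± 0.616 TPM untreated in the SUZ12 line (log2 fold change -2.63 ± 0.13, adjusted p 3.17e-13). Of 11 further calcium channel subunits, 10 were lower in SUZ12 NPC with auxin, 8 in JARID2 NPC and 2 in MTF2 NPC. Cacna1g, the pore of a T-type channel, averaged 8.10 ± 0.147 TPM with auxin and 44.7 ± 1.43 TPM untreated in the SUZ12 line (log2 fold change -2.39 ± 0.11, adjusted p 5.46e-14).

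Of 15 further dense core granule genes, 11 were lower and 2 higher with auxin in SUZ12 NPC, and 11 were lower and 1 higher in JARID2 NPC. Of all genes, 33% were lower in SUZ12 NPC and 15.7% in JARID2 NPC. Scg2, secretogranin II, averaged 1.29 ± 0.784 TPM with auxin and 60.2 ± 5.65 TPM untreated in the SUZ12 line (log2 fold change -5.15 ± 0.18, adjusted p 1.39e-15), which is a larger fall than that of any of the 33 genes there. Of 20 further genes of transmitter synthesis and transport, 11 were lower and 5 higher in SUZ12 NPC with auxin. There 56.9% of all genes were called and 33% were lower. Slc18a2, which loads monoamines into vesicles, averaged 2.54 ± 0.491 TPM with auxin and 19.5 ± 0.407 TPM untreated (log2 fold change -2.73 ± 0.17, adjusted p 8.84e-12), whereas Gls2, a glutaminase, averaged 15.8 ± 1.34 TPM with auxin and 1.85 ± 0.388 TPM untreated (log2 fold change 2.80 ± 0.18, adjusted p 3.04e-11).

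Several of the genes share exon bases with a gene on the opposite strand in GENCODE M21, namely Syt4, Syp, Syn1, Syn2, Rab3a, Unc13a, Pclo, Slc32a1 and Grm2. The largest share was that of Slc32a1, of which 24.9% of the exon length overlaps Gm14205. The libraries were strand-specific, but the strand setting of the counting is not given in the sources used here, so reads of these pairs may not be fully separated.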

How the data were processed

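RNA was selected for poly(A) and libraries kept the strand by dUTP, per the labels' protocols. The aligner was STAR 2.6.1d and the genome mm10, per the submitters' processing notes; what counted them, on which strand and with which gene models is not stated there. The deposited table holds TPM, computed by the authors, for 47 libraries, and every sample column was used. Whole reads were recovered from the TPM steps (tolerance 0.001) for 100% of genes above 0. The test was limma 3.58.1 in R 4.3.3, with trended and robust empirical Bayes, on log2(TPM + 0.5). A gene entered when 2 libraries of the fit reached 1 TPM. Fits covered the 8 groups of a stage, or all 16 groups for NPC against ESC, with Benjamini-Hochberg adjustment over all genes. The procedure was also run on simulated data, the outcome of which is not given here. The 33 genes and 16 further gene lists were chosen with earlier results of these data known. All 33 are described, and of each further list up to 3 called genes with the smallest adjusted p could be named. The alternatives used a pseudocount of 0.1 or 1, no filter on low values, median-of-ratios scaling, a replicate block, limma voom on recovered reads, a fit to the compared groups alone, and each library left out in turn. Depth limits the precision of genes near 1 TPM.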

Additional observations from a re-analysis of the deposited data

Results flagged for a closer look

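Each of the following is a difference between 2 lines in the effect of auxin in NPC, tested as an interaction with limma across all genes; the comparisons with the untagged line share its libraries. The auxin effect was lower in the SUZ12 line than in the untagged line for 26 of the 28 genes tested, where 24.7% of all genes were lower, and lower in the JARID2 line than in the untagged line for 15, where 5.94% were. It was lower in the SUZ12 line than in the MTF2 line for 22 genes, where 27.2% of all genes were lower, and lower in the SUZ12 line than in the JARID2 line for 22, where 17.6% were. It was higher in the MTF2 line than in the JARID2 line for 12 genes, where 7.82% of all genes were higher. The medians of these differences over the 28 genes were -1.68 for SUZ12 minus MTF2 and -1.18 for SUZ12 minus JARID2. Untreated NPC of the JARID2 line already lay below those of the untagged line in 23 of the 28 genes, where 12% of all genes were lower, so its auxin effect starts from a lower level, and the part of this in the differences was not tested.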

How the results depend on the processing

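Of the single gene calls, 2302 of 2349 kept their direction and call under the alternatives other than leaving out a library and 47 lost the call; with 1 library left out, 2159 of 2250 kept both and 91 lost the call, and none changed direction in either set. For the causes of the following changes, the cause was not tested. With limma voom on recovered reads the number of genes called was 1 in SUZ12 ESC with auxin (Vamp1, against 0), 16 in MTF2 NPC with auxin (against 10), 2 for MTF2 minus untagged in NPC (Slc18a3 and Slc32a1, against 0) and 2 for untreated MTF2 against untagged NPC (Cplx1 and Cacna1b, against 0). For MTF2 minus untagged in NPC it was also 1 with a pseudocount of 1 and 1 in the fit to the compared groups alone (Slc32a1 in both), and for untreated MTF2 against untagged ESC it was 1 in the fit to the compared groups alone, against 3. Leaving out 1 library gave 6 to 9 genes in MTF2 NPC with auxin, 0 to 2 for MTF2 against untagged ESC and 0 to 1 for MTF2 against untagged NPC. The ranges were 25 to 26 in SUZ12 NPC with auxin, 22 to 23 in JARID2 NPC with auxin, 24 to 26 for SUZ12 minus untagged, 13 to 18 for JARID2 minus untagged and 18 to 23 for untreated JARID2 against untagged NPC. Over all genes averaging at least 10 TPM, same-numbered libraries did not deviate together throughout (correlations from -0.15 to 0.22 by title number). The numbers were therefore not taken as pairing in the main fit. For the 33 genes, however, the library numbered 1 had the highest summed level in every NPC group with 3 libraries. In untreated untagged NPC it was 723 TPM, against 675 and 617 TPM. The SUZ12 NPC libraries with auxin bear the library-name numbers 2 and 3. The part of this in the SUZ12 results was not tested beyond the blocks that follow. A replicate block by title number or by library-name number gave 1 gene (Grm2) for MTF2 minus untagged, against 0. For MTF2 NPC with auxin the block gave 13 genes by title number (Vamp2, Rab3a, Unc13a and Cacna1b gained, Syp lost) and 15 by library-name number (these 4 and Syt11 gained), against 10, and by library-name number Sv2a lost its call in SUZ12 NPC (adjusted p 0.0789). Median-of-ratios scaling moved the higher share of all calls by over 10 points also in SUZ12 ESC with auxin (35.3%, against 86.2%). Genes with few reads, such as Gad2, Slc5a7, Slc17a6 and Sv2c, are limited by depth.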

Other observations

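Rest, the repressor whose element was searched for in the start regions, had 41.9 and 36.7 TPM in SUZ12 NPC with auxin and 17.9, 16.3 and 16.4 TPM untreated (log2 fold change 1.2 ± 0.12, adjusted p 2.98e-08). In JARID2 NPC it had 40.0, 29.5 and 31.6 TPM with auxin and 24.0, 25.2 and 21.6 TPM untreated (log2 fold change 0.50 ± 0.11, adjusted p 0.00164). In MTF2 NPC the log2 fold change was 0.33 ± 0.11 and was not called (adjusted p 0.0623). In untagged cells Rest averaged 15.5 ± 0.599 TPM in NPC and 119 ± 3.77 TPM in ESC (SD, n = 3 each). With auxin in SUZ12 NPC 56.9% of all genes tested were called and 33% were lower. Of the 9 genes of the REST complex, 2 were higher and 4 lower with auxin in SUZ12 NPC. Of 11 tested PRC2 subunits, 5 were higher and 3 lower there. These are values of mRNA, and any relation to the level of the 33 genes was not tested.

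On the receiving side of the synapse, 25 of 30 tested postsynaptic receptors and scaffolds were lower and 1 was higher with auxin in SUZ12 NPC. In MTF2 NPC 5 were lower, and in JARID2 NPC 12 were. Of all genes, 56.9% were called and 33% were lower with auxin in SUZ12 NPC. These shares were 8.14% and 3.11% in MTF2 NPC and 25% and 15.7% in JARID2 NPC. Chrna3, a subunit of nicotinic acetylcholine receptors, averaged 8.28 ± 0.936 TPM with auxin and 93.1 ± 4.27 TPM untreated in the SUZ12 line (log2 fold change -3.42 ± 0.08, adjusted p 4.26e-19). Of 12 motor neuron markers, 9 were lower and 1 higher in SUZ12 NPC, 7 were lower in MTF2 NPC and 11 in JARID2 NPC. Isl1, a motor neuron transcription factor, averaged 13.7 ± 0.726 TPM with auxin and 171 ± 3.93 TPM untreated in the SUZ12 line (log2 fold change -3.59 ± 0.07, adjusted p 1.07e-19). Of 12 tested ventral interneuron markers, 9 were lower and 1 higher with auxin in SUZ12 NPC, 6 were lower in MTF2 NPC, and 5 were lower and 1 higher in JARID2 NPC. Tal1, a transcription factor of these cells, averaged 5.54 ± 0.403 TPM with auxin and 12.3 ± 0.637 TPM untreated in the MTF2 line (log2 fold change -1.08 ± 0.17, adjusted p 4.52e-04). Of 12 neural crest and sympathetic markers, 5 were higher and 5 lower with auxin in SUZ12 NPC, where 33% of all genes were lower.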
